A study of Mus musculus with 14 samples.

Results

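Fas, Casp8, Bid, Bak1, Bax, Bcl2, Bcl2l1 and Bcl2l11, 8 genes of death receptor signalling and of the Bcl2 family, were taken by gene name from array data on mouse pancreatic islets. A row of the array table carried the name of 7 of them, out of 19938 genes tested, and each of the 7 had a single transcript cluster that named no other gene. Bax was not analysed here. The islets came from untreated 11-week-old mice of a C57BL/6 and NMRI (1:1) background, in 3 groups. Control islets were measured on 5 arrays, and the labels give no allele for them. Pdx-1+/- islets (4 arrays) came from mice with the driver allele Pdx-1-tTA, which leaves them haploinsufficient for Pdx-1, a transcription factor of β-cells. The third group, IKK2-CApdx-1 (here IKK2-CA, 5 arrays), came from diabetic mice in which that driver switched on a constitutively active IKK2, the kinase that turns on NF-κB. IKK2-CA and Pdx-1+/- mice therefore share the driver allele, while a comparison of IKK2-CA with control takes the driver, the active kinase and the diabetes together. The kinase was directed to β-cells, but the RNA was that of whole islets. Fewer cells of a type and less RNA per cell cannot be told apart in such samples. The values are log2 RMA signals (a summary over the probes of a gene), which compare arrays for the same gene and not genes with each other.

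Fas is a receptor of the TNF family, and its ligand drives it to recruit the adaptor Fadd and the initiator caspase Casp8. In cells where this signal alone is weak, Casp8 cuts Bid, and the fragment carries the signal to mitochondria. There Bak1 and Bax open the outer membrane, which releases cytochrome c. Bcl2 and Bcl2l1 (Bcl-xL) hold them back, and Bcl2l11 (Bim), like Bid, is a BH3-only protein that opposes these guardians. In pancreatic islets this machinery is known for its part in β-cell loss under inflammatory cytokines, and NF-κB can drive genes on both the death and the survival side.

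Every IKK2-CA array lay above every control array for 1.86% of all genes and, among the members, for Casp8 and Bak1. The 250 bases before a listed transcription start of each are shown as the promoter entries of that pair. Both are from RefSeq on GRCm38.p6, 5′ to 3′ on the strand of the gene. The Casp8 window is chr1:58802252-58802501 on the plus strand, and the Bak1 window is chr17:27028628-27028877 on the minus strand. The Casp8 gene starts at 58795233, so its window precedes a start inside the gene and not the first base of the gene. Capitals mark letters that match a κB-like motif, GGGANNNNCC, on either strand.
Casp8: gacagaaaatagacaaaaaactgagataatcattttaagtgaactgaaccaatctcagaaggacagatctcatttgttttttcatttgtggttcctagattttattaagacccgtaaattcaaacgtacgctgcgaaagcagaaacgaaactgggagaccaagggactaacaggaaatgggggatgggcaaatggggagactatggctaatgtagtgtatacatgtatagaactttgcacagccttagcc
Bak1: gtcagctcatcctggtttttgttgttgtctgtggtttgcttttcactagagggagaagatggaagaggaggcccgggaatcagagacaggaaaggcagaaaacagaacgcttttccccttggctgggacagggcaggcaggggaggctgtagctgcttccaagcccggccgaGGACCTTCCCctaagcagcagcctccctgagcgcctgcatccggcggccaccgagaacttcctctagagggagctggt
The κB-like motif was found once in the Bak1 window, on the reverse strand from base 78 before the start, and not in the Casp8 window. It occurred in 17.6% of the 32851 promoters of the same length in the RefSeq table. An interferon-response-like motif, GAAANNGAAA, searched on both strands, was in neither window and in 2.98% of all promoters. The GC content was 39.6% in the Casp8 window and 58.4% in the Bak1 window, below and above the median of 52.4% for all promoters. The GC box GGGCGG, in 32.7% of promoters on either strand, was in neither of these windows, while the Bcl2 window held 7, Bid 3, Bax 2, Fas 1 and the 2 Bcl2l11 windows 3 and 2. All 8 genes had at least 1 entry and 11 in all. The Bcl2l1 windows and 1 of the 2 Bcl2l11 windows also lay inside their genes. Most of the Bid window (120916825 to 120917074, minus strand) lay inside its gene, which ends at 120917062. The ends of the Fas and Bax windows reached into their genes as well. None of the windows of the 6 genes other than Casp8 and Bak1 held the κB-like or the interferon-response-like letters. The forkhead motif GTAAACA, found in 3.17% of promoters, was present in 1 of the 2 Bcl2l11 windows, from base 227 before the start, and in no other window. A match of letters describes this window and is not evidence of binding.

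The array medians over the 19938 genes lay between 6.45 and 6.55. With 4 or 5 arrays a group, the array number sets how precise each difference can be. Nothing in the labels ties an array to 1 mouse or a pool, so p-values measure only the spread between these samples, which may be technical. Islet endocrine markers (10 of 12 measured, Ins2, Gcg and Sst among them) averaged 11.57 to 12.35 per array, and acinar markers (10 of 12 measured) averaged 12.04 to 12.70. Markers of other tissues set 3 arrays apart. The mean over 10 intestinal markers was 8.75 on Pdx-1+/- array 4 and 6.99 on control array 3, and 4.88 to 5.04 on the IKK2-CA arrays. The mean over 7 adipocyte markers was 9.82 on IKK2-CA array 5 against at most 7.81 on any control array. Several differences are given below with and without these arrays.

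No member passed an adjusted p of 0.05 in any of the 3 comparisons. With limma, 0 of 7 passed in IKK2-CA against Pdx-1+/- islets, where 0.0752% of all genes did. An unadjusted p under 0.05 was found for 2 of 7, against 7.02% of all genes. In IKK2-CA against control islets 0 of 7 passed, against 2.25% of all genes. Here 3 of 7 had an unadjusted p under 0.05, against 15.7% of all genes. In Pdx-1+/- against control islets 0 of 7 passed, against 0.0953% of all genes. None had an unadjusted p under 0.05 there, against 4.71% of all genes. All 7 members had a higher mean in IKK2-CA than in control islets (median log2 difference 0.24, against −0.01 over all genes, of which 46.4% were positive). Against Pdx-1+/- islets 6 of 7 were positive (median 0.25, against −0.01 over all genes). Between Pdx-1+/- and control islets 4 were positive and 3 negative, with a median of 0.01. The first 2 of these comparisons share the IKK2-CA arrays, so their signs are not independent. Nor are the signs of different members, as 6 of the 7 were highest on IKK2-CA array 5, like 14% of all genes. Bcl2l1, at 0.02 against control, had the other sign in 4 of 25 other processing settings.

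**Figure D1:**
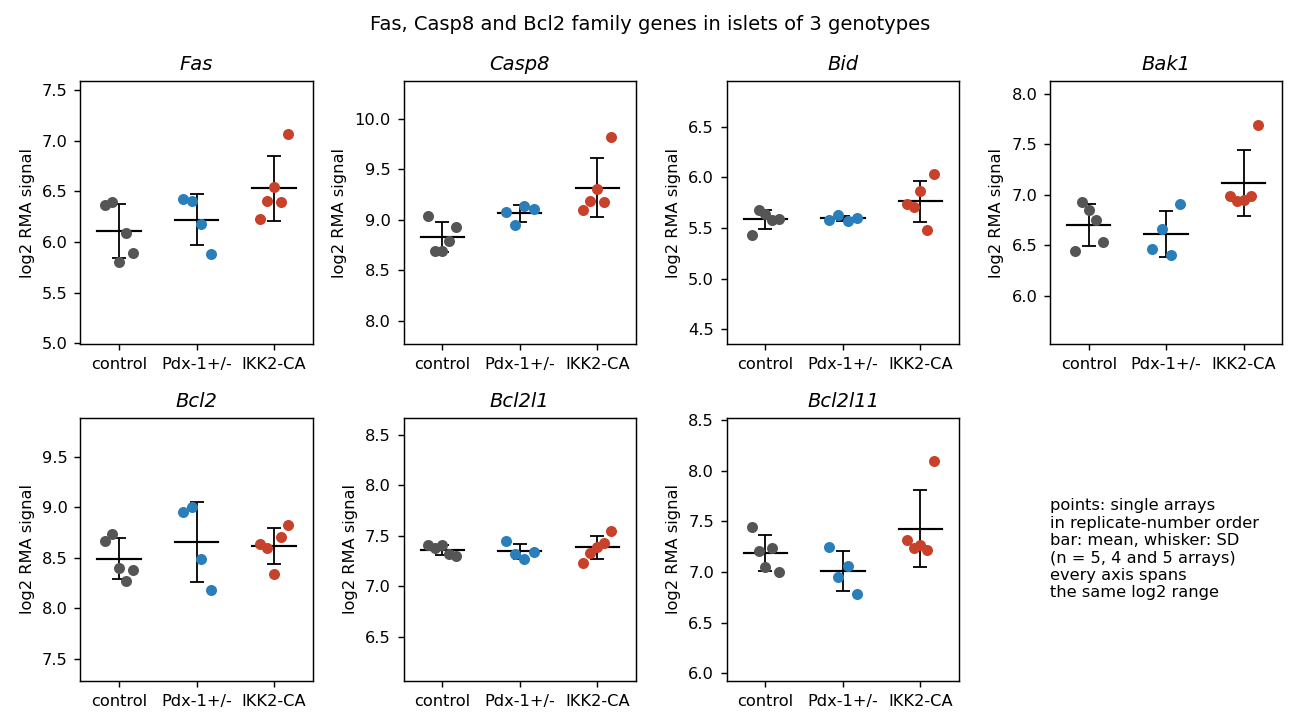
Log2 RMA signal of the 7 measured genes on each array (points, in order of replicate number) of control, Pdx-1+/- and IKK2-CA islets, with the group mean (bar) and SD (whisker), n = 5, 4 and 5 arrays; every vertical axis spans the same log2 range. Casp8 on IKK2-CA arrays (9.10 to 9.82) lay above control arrays (8.695 to 9.03), as for 1.86% of all genes. Bak1 on IKK2-CA arrays (6.94 to 7.69) lay above both other groups. Of all genes, 1.72% lay above every Pdx-1+/- array in this way. Bcl2l1 was nearly flat.

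The receptor Fas read 6.37, 6.39, 5.80, 6.09 and 5.89 on control arrays 1 to 5. It read 6.42, 6.40, 6.18 and 5.89 on Pdx-1+/- arrays 1 to 4, and 6.22, 6.41, 6.55, 6.40 and 7.07 on IKK2-CA arrays 1 to 5. The groups overlapped, since IKK2-CA array 1 lay below 2 control arrays and 2 Pdx-1+/- arrays, and the highest value belonged to IKK2-CA array 5. The group means were 6.11 ± 0.27 (SD, n = 5) in control, 6.22 ± 0.25 (SD, n = 4) in Pdx-1+/- and 6.53 ± 0.32 (SD, n = 5) in IKK2-CA islets. IKK2-CA was 1.34-fold above control (log2 0.42, SE 0.16, 95% interval 0.07 to 0.77, limma adjusted p = 0.214). It was log2 0.31 above Pdx-1+/- (SE 0.17, adjusted p = 0.825), and Pdx-1+/- differed from control by log2 0.11 (SE 0.17, adjusted p = 0.999). No neighbours in this order differed beyond their spread. Control array 3 and Pdx-1+/- array 4, the arrays with intestinal genes, gave the lowest Fas value of their groups.

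Casp8, the initiator caspase that Fas recruits, came closest to the threshold. It read 9.03, 8.695, 8.695, 8.79 and 8.93 on control arrays 1 to 5, and 9.08, 8.95, 9.14 and 9.10 on Pdx-1+/- arrays 1 to 4. On IKK2-CA arrays 1 to 5 it read 9.10, 9.19, 9.31, 9.18 and 9.82. Every IKK2-CA array was above every control array, as for 1.86% of all genes in this direction. The Pdx-1+/- values overlapped both groups. The means were 8.83 ± 0.15 (SD, n = 5), 9.07 ± 0.08 (SD, n = 4) and 9.32 ± 0.29 (SD, n = 5), in the same order of groups. IKK2-CA was 1.40-fold above control (log2 0.49, SE 0.12, 95% interval 0.23 to 0.75), at a limma adjusted p of 0.0513, just short of the threshold. Over 25 other settings that adjusted p ran from 0.0207 to 0.155 and was under 0.05 in 8 of them, while the difference stayed between 0.33 and 0.54. Both steps of the order were smaller. Pdx-1+/- was log2 0.24 above control (SE 0.13, adjusted p = 0.999), and IKK2-CA log2 0.25 above Pdx-1+/- (SE 0.13, adjusted p = 0.763).

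Bid, which Casp8 cuts to reach the mitochondria, varied little outside the IKK2-CA group. It read 5.44, 5.68, 5.64, 5.58 and 5.58 on the control arrays, 5.58, 5.63, 5.57 and 5.597 on the Pdx-1+/- arrays, and 5.74, 5.71, 5.87, 5.48 and 6.03 on the IKK2-CA arrays. IKK2-CA arrays 1, 2, 3 and 5 lay above every array of the other groups, and array 4 lay below all but control array 1. The means were 5.58 ± 0.09 (SD, n = 5), 5.595 ± 0.02 (SD, n = 4) and 5.77 ± 0.20 (SD, n = 5). IKK2-CA differed from control by log2 0.18 (SE 0.09, limma adjusted p = 0.355) and from Pdx-1+/- by log2 0.17 (SE 0.09, adjusted p = 0.815). Pdx-1+/- and control differed by log2 0.01 (95% interval −0.19 to 0.21).

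Bcl2l11, the BH3-only protein Bim, exceeded control mainly through IKK2-CA array 5. It read 7.45, 7.21, 7.05, 7.24 and 7.004 on the control arrays and 7.25, 6.95, 7.06 and 6.79 on the Pdx-1+/- arrays. The IKK2-CA arrays 1 to 4 read 7.32, 7.23, 7.27 and 7.22, inside the control range, and array 5 read 8.10. The means were 7.19 ± 0.18 (SD, n = 5), 7.01 ± 0.20 (SD, n = 4) and 7.43 ± 0.38 (SD, n = 5), in the same order of groups. IKK2-CA was 1.34-fold above Pdx-1+/- (log2 0.42, SE 0.17, 95% interval 0.06 to 0.77, limma adjusted p = 0.63) and log2 0.24 above control (SE 0.16, adjusted p = 0.522). Without IKK2-CA array 5 these differences were 0.25 and 0.07. With Pdx-1+/- array 4, the lowest of its group, also left out, the difference from Pdx-1+/- was 0.175 (SE 0.11, adjusted p = 0.603). Pdx-1+/- was log2 0.18 below control, as a difference of −0.18 (SE 0.17, adjusted p = 0.999).

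Bak1, the effector that opens the mitochondrial outer membrane, had its highest values in all 5 IKK2-CA arrays. It read 6.45, 6.93, 6.85, 6.75 and 6.53 on the control arrays and 6.47, 6.66, 6.41 and 6.91 on the Pdx-1+/- arrays. The IKK2-CA arrays read 6.99, 6.94, 6.95, 6.99 and 7.69. Every IKK2-CA array was thus above every array of the other groups, although the lowest of them (6.94) was close to the highest control array (6.93). Of all genes, 1.72% lay above every Pdx-1+/- array in this way, and 1.86% above every control array, as said for Casp8. The means were 6.70 ± 0.21 (SD, n = 5), 6.61 ± 0.23 (SD, n = 4) and 7.11 ± 0.32 (SD, n = 5). IKK2-CA was 1.42-fold above Pdx-1+/- (log2 0.50, SE 0.16, 95% interval 0.16 to 0.85, limma adjusted p = 0.434). It was 1.33-fold above control (log2 0.41, SE 0.15, 95% interval 0.09 to 0.73, adjusted p = 0.186). Pdx-1+/- and control differed by log2 −0.09 (SE 0.16, adjusted p = 0.999).

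The guardian Bcl2 had no direction that the groups shared. It read 8.67, 8.74, 8.40, 8.27 and 8.38 on the control arrays, 8.96, 9.001, 8.49 and 8.18 on the Pdx-1+/- arrays, and 8.63, 8.59, 8.34, 8.71 and 8.82 on the IKK2-CA arrays. The Pdx-1+/- group held both the highest and the lowest value of the 14 arrays, the lowest on array 4, which had intestinal genes. The means were 8.49 ± 0.20 (SD, n = 5), 8.66 ± 0.39 (SD, n = 4) and 8.62 ± 0.18 (SD, n = 5), and all 3 groups overlapped. IKK2-CA differed from control by log2 0.13 (95% interval −0.20 to 0.45, limma adjusted p = 0.777) and from Pdx-1+/- by −0.04 (95% interval −0.39 to 0.31, adjusted p = 0.992). Pdx-1+/- differed from control by log2 0.17 (95% interval −0.18 to 0.51, adjusted p = 0.999).

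Bcl2l1, which encodes the guardian Bcl-xL, was the least variable member, with a range of 0.32 log2 over all 14 arrays against 1.32 for Bcl2l11. It read 7.41, 7.38, 7.41, 7.32 and 7.30 on the control arrays, 7.45, 7.32, 7.27 and 7.34 on the Pdx-1+/- arrays, and 7.23, 7.33, 7.38, 7.43 and 7.55 on the IKK2-CA arrays. The IKK2-CA arrays held both the lowest and the highest value. The means were 7.36 ± 0.05 (SD, n = 5), 7.35 ± 0.08 (SD, n = 4) and 7.38 ± 0.12 (SD, n = 5). The interval of the IKK2-CA to control difference ran from −0.13 to 0.17 log2, that of IKK2-CA to Pdx-1+/- from −0.12 to 0.19, and that of Pdx-1+/- to control from −0.17 to 0.14. The limma adjusted p-values were 0.935, 0.983 and 0.999.

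**Figure D2:**
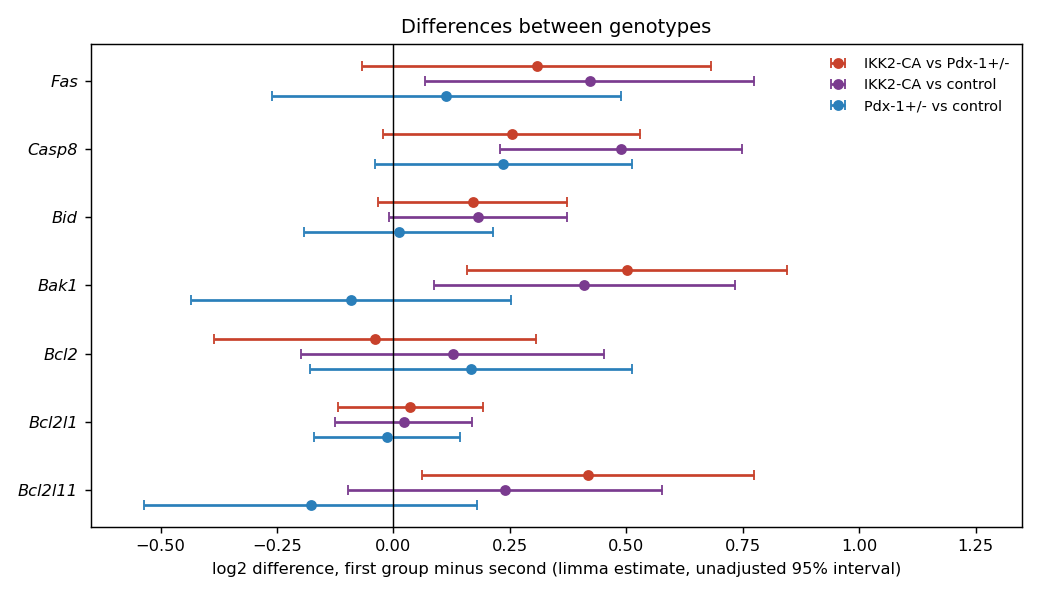
Log2 difference of each gene in the 3 comparisons (points, first group minus second) with its unadjusted 95% interval from the limma fit over 14 arrays. The intervals of Fas, Casp8 and Bak1 for IKK2-CA against control and of Bak1 and Bcl2l11 for IKK2-CA against Pdx-1+/- lie above 0, while every adjusted p exceeded 0.05 and the smallest was 0.0513.

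IKK2-CA array 5 gave the highest value of all 14 arrays for 6 of the 7 members, Bcl2 being the exception, as it did for 14% of all genes. It deviated from the mean of the 14 arrays by 0.78 for Fas, 0.75 for Casp8, 0.87 for Bak1, 0.88 for Bcl2l11, 0.38 for Bid, 0.18 for Bcl2l1 and 0.24 for Bcl2. Leukocyte markers moved with it. Of 21 measured (of 22 listed), 18 were highest on that array, and the mean of the list was 8.64 there. It was 6.93 to 7.22 on control and 6.995 to 7.39 on Pdx-1+/- arrays, with 7.06 as the lowest IKK2-CA value. As deviations from the mean of all arrays, IKK2-CA arrays 1 to 5 stood at −0.02, 0.31, 0.71, −0.30 and 1.28. In IKK2-CA against control 3 of the 21 passed as higher (Cd52, Lcp1 and Itgax), beside 136 of all 19938 genes. The list did not move as one. Itgam (0.06), Adgre1 (0.05), Lyz2 (0.04) and Csf1r (−0.01) were near 0, while 19 of the 21 were positive. Of the 10 islet endocrine markers 2 passed as lower, beside 312 of all genes. These were G6pc2, a glucose-6-phosphatase subunit of β-cells (−1.16, SE 0.19, limma adjusted p = 0.00828), and Sst, the hormone of delta cells (−0.67, SE 0.15, adjusted p = 0.0358). In Pdx-1+/- against control islets G6pc2 was at −0.79 (SE 0.20, adjusted p = 0.308) and Sst at −0.45 (SE 0.16, adjusted p = 0.822). In IKK2-CA against Pdx-1+/- islets they were at −0.37 (SE 0.20, adjusted p = 0.805) and −0.22 (SE 0.16, adjusted p = 0.891). Ptprc, the CD45 antigen of all leukocytes, read 9.24 on array 5, 8.42 on array 3, 8.08 on array 2, 7.61 on array 1 and 7.54 on array 4. Its highest control value was 7.47. Over the 14 arrays the correlation with the leukocyte mean was 0.87 for Bid, 0.83 for both Casp8 and Fas, 0.78 for Bcl2l11, 0.73 for Bak1, 0.55 for Bcl2l1 and 0.22 for Bcl2. Over the 13 arrays without IKK2-CA array 5 it was 0.72 for Bid, 0.64 for Fas, 0.595 for Casp8, 0.38 for Bcl2l11, 0.33 for Bak1, 0.10 for Bcl2l1 and 0.02 for Bcl2. With the adipocyte mean the correlation over 14 arrays was 0.75 for Bcl2l11, 0.74 for Bak1, 0.655 for Bcl2l1, 0.60 for Fas, 0.57 for Bid, 0.42 for Casp8 and 0.29 for Bcl2. Without IKK2-CA array 5 it was between −0.71 (Casp8) and 0.27 (Bak1). Correlations of similar size with other marker means were present over those 13 arrays. Casp8 was at 0.64 with the acinar mean and at −0.61 with the islet endocrine mean. With the intestinal mean, Fas was at −0.65 and Bcl2l11 at −0.68. These arrays share groups. The part of leukocyte, adipocyte, endocrine, acinar and intestinal RNA in the members' values was not tested.

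Without IKK2-CA array 5 the difference from control was 0.36 for Casp8 (SE 0.09, limma adjusted p = 0.0515), 0.29 for Fas (SE 0.14, adjusted p = 0.37), 0.27 for Bak1 (SE 0.12, adjusted p = 0.303) and 0.12 for Bid (SE 0.08, adjusted p = 0.55). The differences from Pdx-1+/- became 0.36 for Bak1, 0.17 for Fas and 0.13 for Casp8. When Pdx-1+/- array 4 was left out as well, Fas differed from Pdx-1+/- by 0.06 and Bak1 by 0.46. In that fit Casp8 passed against control (log2 0.36, SE 0.09, adjusted p = 0.0456), and it no longer did when control array 3 was also left out (0.33, SE 0.09, adjusted p = 0.125).

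**Figure D3:**
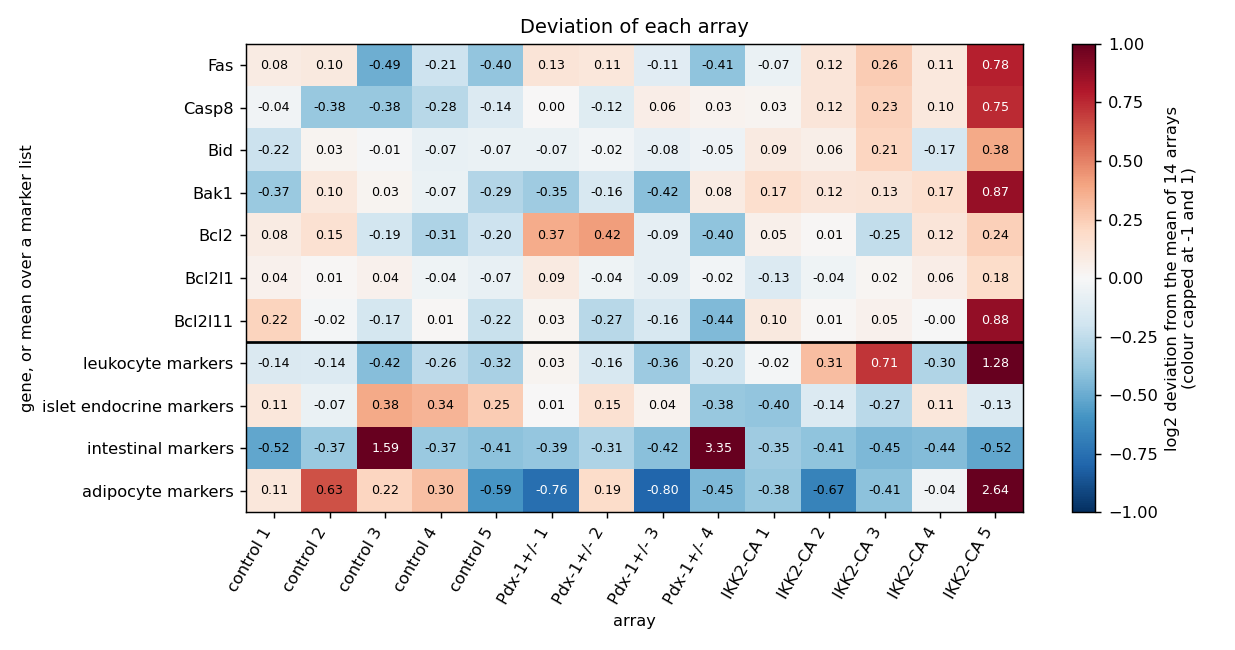
Log2 deviation of each array from the mean of the 14 arrays for the 7 genes and, below the line, for the means over leukocyte, islet endocrine, intestinal and adipocyte markers (colour capped at -1 and 1; the numbers are the values). IKK2-CA array 5 stands out for Fas, Casp8, Bak1, Bcl2l11 and the leukocyte (1.28) and adipocyte (2.64) markers, and Pdx-1+/- array 4 for the intestinal markers (3.35).

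Among themselves the members were less alike once that array was set aside. Over 14 arrays the highest correlations were 0.81 between Fas and Bcl2l11, 0.79 between Bid and Bak1, and 0.74 between Fas and Casp8. Over the 13 arrays without IKK2-CA array 5, Fas kept 0.625 with Bcl2, 0.59 with Bcl2l11 and 0.47 with Casp8, and Bid kept 0.54 with Bak1. Casp8 and Bak1 went from 0.61 to 0.07. The genes whose pattern was most like that of Fas over the 14 arrays, by Pearson correlation over all genes, were Sp100 (0.97), a nuclear body protein, and Ifnar2 (0.97), a chain of the type I interferon receptor. Those most like Casp8 were Cytip (0.93), an adhesion regulator of leukocytes, and Baz1a (0.93), a chromatin remodelling subunit. Bid was most like Tenm1 and Treml4 (both 0.95), and Bak1 most like Mcemp1 (0.94) and Gm11545 (0.93). Bcl2l11 was most like Vrk1, a nuclear kinase, and Samhd1, a restriction factor that degrades nucleotides (0.94 for both). Bcl2 was most like Cd81 (0.91) and Ppfibp2 (0.89), and Bcl2l1 most like Clptm1 (0.89) and Ttpal (0.87). The correlations are descriptions over 14 arrays that share 3 groups.

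The wider cell death machinery was looked at through 8 lists with 64 genes, of which 54 were measured, the 7 members included. None passed in any comparison by limma. In IKK2-CA against control islets 42 were positive and 12 negative (median log2 0.18, against −0.01 over all genes). Of them, 19 of 54 had an unadjusted p under 0.05, against 15.7% of all genes. Against Pdx-1+/- islets 43 were positive (median 0.15) and 13 had such a p, against 7.02% of all genes. Between Pdx-1+/- and control islets 31 were positive (median 0.01) and 1 had such a p, against 4.71%. IKK2-CA array 5 gave the highest value for 31 of the 54, the 6 members named above included, against 14% of all genes.

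On the receptor side (12 of 13 measured), 10 were positive in IKK2-CA against control (median 0.20) and none passed. Tnf, the cytokine ligand of TNF receptors, was at log2 0.61 (SE 0.22, adjusted p = 0.167) and Tnfrsf10b, the mouse TRAIL receptor, at 0.52 (SE 0.18, adjusted p = 0.157). Tnf read 8.10, 7.68, 8.10, 7.44 and 8.60 on the IKK2-CA arrays and 6.76 to 7.81 on the control arrays, so the groups overlapped. Fadd, the adaptor between Fas and Casp8, was at −0.00043 (SE 0.09, adjusted p = 0.9996). Cflar, the decoy that blocks Casp8 at the receptor, was at 0.23 (SE 0.11, adjusted p = 0.33).

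Among the 8 BH3-only genes, all measured, 6 were positive in IKK2-CA against control (median 0.13) and none passed. Pmaip1 (Noxa), which antagonises Mcl1, was at log2 0.48 (SE 0.14, limma adjusted p = 0.0993). It read 6.90, 6.90, 7.14, 6.55 and 7.47 on the IKK2-CA arrays and 6.36 to 6.69 on the control arrays, with array 4 inside the control range. The effector list held Bak1 and Bok, its relative in the endoplasmic reticulum. Bok was at 0.33 (SE 0.11, adjusted p = 0.151). Its IKK2-CA arrays lay above every control array, as for 1.86% of all genes, but overlapped the Pdx-1+/- arrays. Of the 5 pro-survival genes measured (of 8 listed) 4 were positive against control (median 0.11). Mcl1, a short-lived guardian, was at 0.28 (SE 0.10, adjusted p = 0.182), and Bcl2l10 at 0.11 (SE 0.08, adjusted p = 0.603). Against Pdx-1+/- islets the same list had a median of −0.01, and Mcl1 was at 0.09 (SE 0.11, adjusted p = 0.963).

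Downstream of mitochondria (11 of 13 measured) 6 were positive in IKK2-CA against control, and the median was 0.02. Cycs, cytochrome c, was at log2 0.36 (SE 0.11, limma adjusted p = 0.0914) and Apaf1, which it assembles into the apoptosome, at 0.30 (SE 0.12, adjusted p = 0.225). Dffa, the inhibitor of the apoptotic nuclease, was the 1 pathway gene with an unadjusted p under 0.05 between Pdx-1+/- and control, at −0.20 (SE 0.09, adjusted p = 0.999). Its Pdx-1+/- arrays lay below every control array, whereas 0 of 7 members were separated in that comparison in either direction, against 1.88% of all genes. Of the inhibitors of apoptosis (5 of 6 measured) 3 were positive against control, with a median of 0.08. Birc3 (cIAP2), a known NF-κB target, was at 0.67 (SE 0.20, adjusted p = 0.102), reading 8.47, 8.72, 9.04, 8.21 and 9.48 on the IKK2-CA arrays against 7.78 to 8.50 on the control arrays. Birc2 was at 0.22 (SE 0.17, adjusted p = 0.606) and Naip2 at 0.08 (SE 0.22, adjusted p = 0.926).

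All 6 genes of necroptosis and pyroptosis, the lytic forms of cell death, were positive in IKK2-CA against both control (median 0.43) and Pdx-1+/- islets (median 0.40), as were 46.4% and 45% of all genes, and none passed. All 6 were highest on IKK2-CA array 5, as were 14% of all genes. Zbp1, Casp1, Ripk3 and Casp4 were second highest on IKK2-CA array 3. Arrays 5 and 3 had the highest leukocyte marker means (1.28 and 0.71 above the mean of all arrays). The part of leukocyte RNA in this list was not tested. Zbp1, a nucleic acid sensor that is also interferon-stimulated, was at log2 0.77 against control (SE 0.23, limma adjusted p = 0.0983). It read 7.29 and 7.65 on IKK2-CA arrays 3 and 5 and 6.35 to 6.45 on the other arrays of that group, against 5.79 to 6.43 on the control arrays. Casp1, the inflammasome caspase, was at 0.57 (SE 0.23, adjusted p = 0.246) and Ripk3, the necroptosis kinase, at 0.32 (SE 0.13, adjusted p = 0.249). Of the p53 list (5 of 7 measured) all 5 were positive against control (median 0.37). Ccng1 (cyclin G1), a p53 target, was at 0.40 (SE 0.11, adjusted p = 0.0869), Sesn2 at 0.52 (SE 0.21, adjusted p = 0.227) and Zmat3 at 0.18 (SE 0.12, adjusted p = 0.526). Ccng1 read 10.72, 10.74, 11.29, 10.90 and 11.35 on the IKK2-CA arrays, above every control array (highest 10.64) and every Pdx-1+/- array (highest 10.66). Of all genes, 1.86% lay above every control array in this way and 1.72% above every Pdx-1+/- array.

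**Figure D4:**
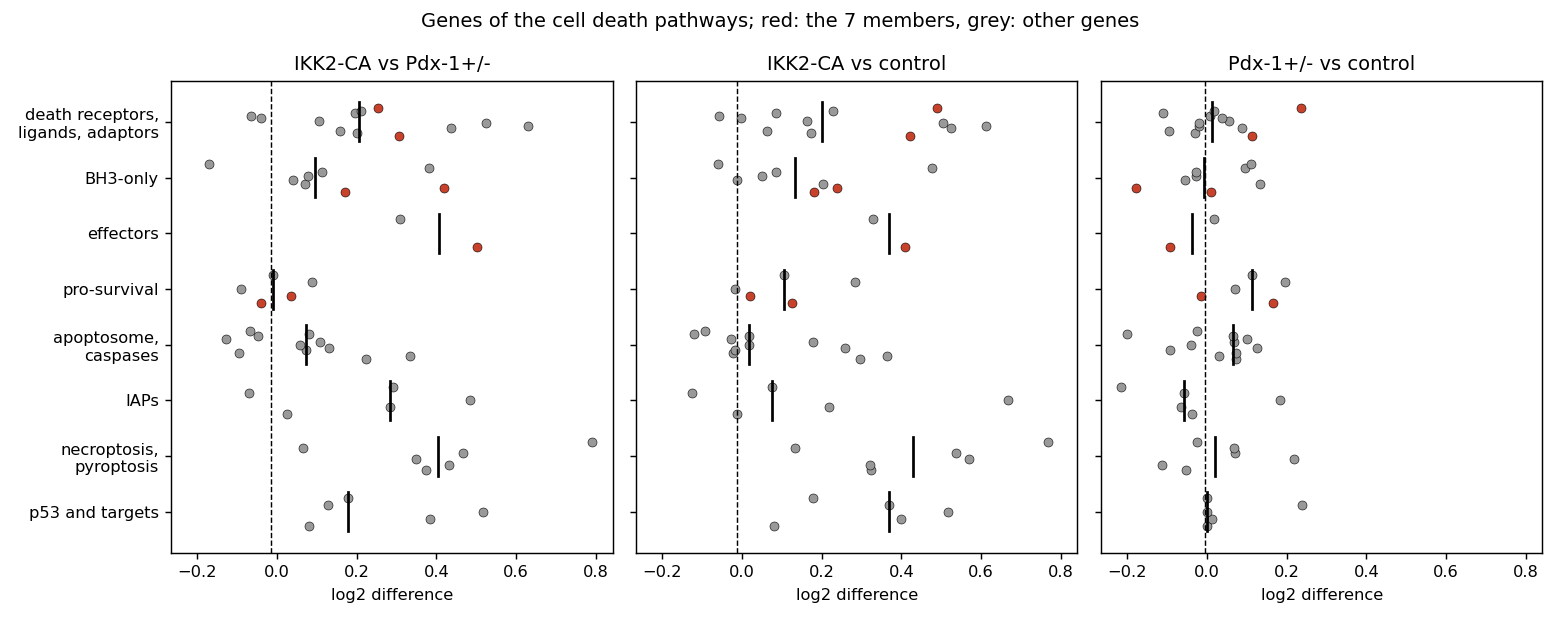
Log2 difference of each measured gene of the 8 cell death lists in the 3 comparisons (first group minus second, on a common axis); red points are the 7 genes described above, grey points the other 47, black bars the list medians and the dashed line the median of all genes. In both comparisons with IKK2-CA all 8 list medians lie to the right of the dashed line, with single genes on either side. They run from −0.01 (pro-survival genes against Pdx-1+/-) to 0.43 (necroptosis and pyroptosis against control). The pro-survival median against Pdx-1+/- (−0.009) nearly coincides with the dashed line (−0.015), and 3 of the 5 genes were negative. In Pdx-1+/- against control all list medians lie between −0.06 and 0.11.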

How the data were processed

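Per the labels, total RNA of islets was labelled for Affymetrix Mouse Gene 1.0 ST arrays. The authors deposited log2 values per transcript cluster, as robust multichip averages (RMA); the submitters' processing notes name Affymetrix Expression Console, and the log base was read from the values. Of 35556 clusters, 21789 had 1 gene symbol in the platform annotation, and the 1621 clusters with more symbols and the 12146 without an entry were not used. For 999 genes with several clusters the one with the highest mean was kept, which gave 19938 genes.

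Genes were tested with limma 3.58.1 (lmFit, eBayes; R 4.3.3). A single model gave each of the 3 groups a mean over 14 arrays (11 residual and 3.46 prior degrees of freedom), with Benjamini-Hochberg adjustment over all genes and a threshold of 0.05. The model was tested on simulated data. No filter or further normalization was applied. Alternatives were other scalings, gene filters, row choices, variance models, array weights, a block and left-out arrays.

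The genes, lists and alternatives were chosen with earlier results of these data known. Named were all members, the 3 genes per list with the lowest p and the 2 genes most like each member. Markers at the extremes of an array that stood apart were named too. Fadd, Cflar, Casp4, G6pc2, Sst, Cd52, Lcp1, Itgax, Itgam, Adgre1, Lyz2 and Csf1r were chosen after their values were seen.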

Additional observations from a re-analysis of the deposited data

Results flagged for a closer look

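In the 21 groups of arrays examined (7 genes in 3 groups), the gap test of Dixon at the 5% level set 1 array far from the others in 3, all on IKK2-CA array 5; about 1 group in 20 is expected to be marked by chance. Of all genes, 6.91% had an IKK2-CA array marked in this way. Casp8 read 9.82 on that array, while the nearest other IKK2-CA array read 9.31 and the lowest 9.10. Bak1 read 7.69 there, while the other 4 lay between 6.94 and 6.99. Bcl2l11 read 8.10 there, while the other 4 lay between 7.22 and 7.32. The same array had the highest means over leukocyte and adipocyte markers, and their part in these values was not tested.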

How the results depend on the processing

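Each difference was computed under 25 other settings, 14 of them leaving out 1 array. In IKK2-CA against control, 1 member (Casp8) rather than 0 passed with arrays centred on their median (adjusted p = 0.0399), quantile normalization (0.0248), the lowest 30% of genes left out (0.0437), array weights (0.0207) and without the 2 arrays with genes of other tissues (0.0456). Leaving out 1 array gave 0 to 1, and it was 1 without IKK2-CA 1 (0.0479), IKK2-CA 4 (0.0353) or Pdx-1+/- 4 (0.0494). Arrays of the same replicate number did not pair (2 of 13 pairs had residual correlations over 0.1). With that number as a block, Casp8 stayed short of the threshold (0.0632) and 0 members passed in any comparison.

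The number of all genes that passed moved more. In IKK2-CA against Pdx-1+/- it was 15, and 1 with only the 2 groups fitted, 52 with array weights, 9 with the replicate block, 52 and 48 without the 2 or 3 arrays, and 2 to 66 without 1 array. In IKK2-CA against control it was 448, and 241, 1431, 197 and (3 arrays left out) 186, and 120 to 980 without 1 array. In Pdx-1+/- against control it was 19, and 73 with array weights, 9 with the replicate block, 11 without 3 arrays and 9 to 48 without 1.

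Signs turned for differences near 0, none of which passed. Against Pdx-1+/-, IKK2-CA Bcl2l1 was −0.007 without the 2 or the 3 arrays and −0.005 to 0.074 without 1, and Bcl2 was −0.199 to 0.075. Against control, IKK2-CA Bcl2l1 was −0.003 with array weights, −0.019 and −0.008 without the 2 and 3 arrays, and −0.019 to 0.06 without 1. In Pdx-1+/- against control, Bcl2l1 was 0.008 with median centring, 0.03 with quantile normalization and −0.049 to 0.01 without 1 array, and Bid was −0.011 with quantile normalization and −0.026 to 0.035 without 1. The cause was not tested. Every other difference of a member kept its sign in all 25 settings. With 4 or 5 arrays a group, an adjusted p over 0.05 does not show that a gene was equal between groups.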
